A study of Homo sapiens with 9 samples.

Results

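Apolipoproteins are the protein components of lipoprotein particles, and the 10 genes described here are APOA1, APOA2, APOA4, APOA5, APOB, APOC1, APOC3, APOE, APOH and APOM. Membership was set by gene symbol alone. Each symbol matched 1 gene of the 60683 listed in the table of raw counts, and each of the 10 was among the 22672 genes tested. RNA-seq was performed on Hep3B, an established human hepatocellular carcinoma line, after 24 hours of exposure. The 3 groups, each of 3 libraries from separately treated cultures, were vehicle (DMSO) at 20% O2, vehicle at 1% O2, and the HIF inhibitor 32-134D at 1% O2. The sample labels name no dose of 32-134D, and no library came from cells given the compound at 20% O2, so an effect of 32-134D without hypoxia cannot be told apart from its effect on the hypoxic response. All groups are the same 1 cell line, so the replicates measure the spread between cultures.

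The liver makes most of the apolipoproteins in blood. APOB is the large structural protein of very low density lipoprotein (VLDL), which carries triglyceride out of the hepatocyte, and 1 molecule stays with each particle. APOA1 and APOA2 form high density lipoprotein (HDL), APOM is a small HDL protein that binds sphingosine 1-phosphate, and the exchangeable proteins APOC1, APOC3, APOA4, APOA5 and APOE move between particles and set how fast these are hydrolyzed and cleared. Hypoxia-inducible factors, HIF-1 and HIF-2, are transcription factors that activate genes at 1% O2, and 32-134D is described by the study as an inhibitor of both.

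Of the 10 genes, APOB and APOM fell in hypoxia and APOA4 and APOC3 rose. With 32-134D at 1% O2, APOB was 8.68-fold higher than with vehicle at 1% O2, APOC3 was 2.82-fold lower and APOA4 was 8.47-fold lower. The other 6 genes, among them the abundant APOA2, APOE and APOA1, did not pass the thresholds in either comparison. Calls needed a Benjamini-Hochberg false discovery rate (FDR) below 0.05 over all 22672 genes and a fold change above 1.5, from 1 edgeR quasi-likelihood fit of the 9 libraries.

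The genes lie at 6 places in the genome, given here on GRCh38 from the GENCODE version 29 annotation. APOA5 (chr11:116789367-116792420), APOA4 (chr11:116820700-116823306), APOC3 (chr11:116829706-116833072) and APOA1 (chr11:116835751-116837950) form 1 cluster, in which APOC3 is on the plus strand and the other 3 are on the minus strand. APOE (chr19:44905754-44909393) and APOC1 (chr19:44914247-44919349) are neighbors on the plus strand of chromosome 19. APOB is at chr2:21001429-21044073, APOA2 at chr1:161222292-161223631 and APOH at chr17:66212033-66256525, each on the minus strand. APOM is at chr6:31652416-31658210 on the plus strand.

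The upstream sequences of 3 of the genes are shown because their calls differed: APOA4 rose in hypoxia, APOM fell, and APOA5, the neighbor of APOA4 in the cluster, was not called. APOA5 had a log2 fold change of -0.77 (FDR = 0.0591) and was called lower in 10 of 19 alternatives, so it is not shown to be unchanged. Each is the 250 bases before a RefSeq start site on GRCh38.p14, 5′ to 3′ on the strand of the gene, and 7 of the 10 genes had such an entry. Capitals mark every match, on either strand, to 5 motifs: ACGTG (the core of the hypoxia response element bound by HIF), AGGTCA (a single repeat of nuclear receptor sites), CAAAGTCCA (an HNF4A site), GTTAAT (1 arm of the HNF1 site) and TTGCNNAA (a C/EBP site).
APOA4 (chr11:116823305-116823554, minus strand): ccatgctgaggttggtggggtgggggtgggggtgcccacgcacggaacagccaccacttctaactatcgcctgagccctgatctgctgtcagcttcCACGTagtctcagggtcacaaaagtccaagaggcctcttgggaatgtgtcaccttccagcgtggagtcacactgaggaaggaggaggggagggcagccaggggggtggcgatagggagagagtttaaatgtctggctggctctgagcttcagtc
APOA5 (chr11:116792421-116792670, minus strand): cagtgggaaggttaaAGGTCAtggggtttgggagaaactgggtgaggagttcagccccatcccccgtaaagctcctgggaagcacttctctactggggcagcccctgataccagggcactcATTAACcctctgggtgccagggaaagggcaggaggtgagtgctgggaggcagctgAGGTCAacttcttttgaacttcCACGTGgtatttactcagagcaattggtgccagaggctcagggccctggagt
APOM (chr6:31655644-31655893, plus strand): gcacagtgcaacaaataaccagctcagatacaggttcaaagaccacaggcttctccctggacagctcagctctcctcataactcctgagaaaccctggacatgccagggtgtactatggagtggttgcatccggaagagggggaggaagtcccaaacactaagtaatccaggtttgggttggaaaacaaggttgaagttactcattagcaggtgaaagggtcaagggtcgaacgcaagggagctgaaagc

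ACGTG was found in the upstream sequence of APOA4 and of APOC1 at 1 position each and of APOA5 at 2 positions, which overlap in the palindrome CACGTG. It was in 18.5% of all 35116 sequences of the same length. AGGTCA was found at 2 positions in the printed sequence of APOA5, at 1 position before its second RefSeq start site, which is not printed and held no other match, and in 12.1% of all sequences, and GTTAAT was found upstream of APOA5 and APOH and in 6.23% of all. The sequences of APOM, APOA2 and the 3 start sites of APOE held none of these letters in this window. CAAAGTCCA and TTGCNNAA, in 0.325% and 9.05% of all sequences, were not found in those of the 7 genes. A match is a description of the letters and says nothing of binding in these cells.

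Levels were compared between genes as CPM, the counts scaled to a common library size by TMM, per kilobase of annotated exon. In vehicle at 20% O2, APOA2 was highest at 3026 ± 329 CPM per kilobase (SD, n = 3), followed by APOE at 1176 ± 99.9 and APOA1 at 399.9 ± 22.3 (SD, n = 3). APOB (302.6 ± 72.6) and APOH (286.5 ± 21.5) came next and overlapped each other, and APOC1 followed at 102 ± 15.1 (SD, n = 3). APOC3 (18.5 ± 1.66), APOM (10.6 ± 0.520), APOA5 (0.833 ± 0.241) and APOA4 (0.435 ± 0.0479) were the 4 lowest, and their ranges did not overlap. In vehicle at 1% O2, APOB moved from rank 4 to rank 7, below APOC3, with which it overlapped, and APOA4 moved above APOA5. With 32-134D, APOB was again at rank 4, at 237.4 ± 47.5 CPM per kilobase (SD, n = 3), overlapping both APOA1 and APOH, and APOA4 was again the lowest.

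Of the summed CPM per kilobase of the 10 genes, APOA2 held 56.8% ± 1.70 in vehicle at 20% O2, 62.6% ± 1.13 in vehicle at 1% O2 and 57.8% ± 1.72 with 32-134D (SD, n = 3 each). APOE held 22.1% ± 0.304, 22.1% ± 0.720 and 22.9% ± 0.792 in the same order (SD, n = 3 each). The share of APOB was 5.78% ± 1.74 in vehicle at 20% O2, 0.547% ± 0.0824 in vehicle at 1% O2 and 5.59% ± 0.291 with 32-134D (SD, n = 3 each). The shares of APOE overlapped between all 3 groups, whereas those of APOB in vehicle at 1% O2 lay below every other library. Because APOB is long, it weighed more in the counts: the 10 genes held 1.12% to 1.19% of all counts at 20% O2, 0.564% to 0.657% in vehicle at 1% O2 and 0.725% to 0.998% with 32-134D.

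**Figure D1:**
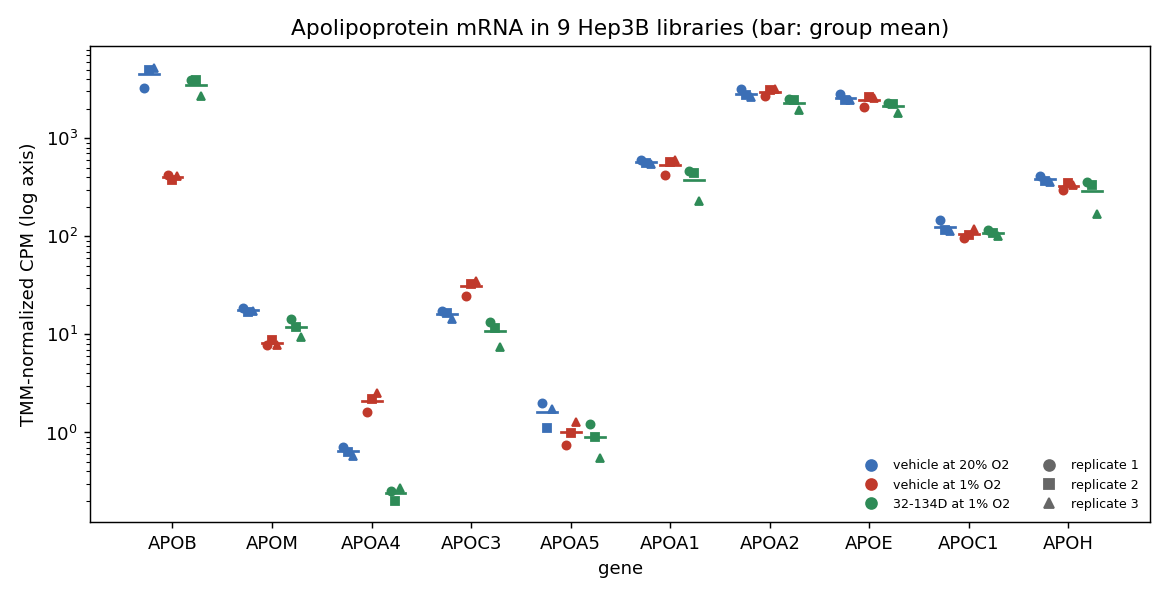
CPM of the 10 apolipoprotein genes on a log axis, with 1 point for each library, colored by group and shaped by replicate, and a bar at the group mean. APOB in vehicle at 1% O2 lies between 377 and 423 CPM, below all other libraries, while APOA4 and APOC3 are highest in vehicle at 1% O2.

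Replicate 3 of 32-134D stood apart from replicates 1 and 2 for most of these genes. It was the lowest of the 3 compound libraries for 9 of the 10 genes, APOA4 being the exception, and for 42.9% of all genes tested. APOA1 was at 459 and 439 CPM in replicates 1 and 2 and at 227 CPM in replicate 3, and APOH was at 359.7, 336 and 169 CPM. The summed CPM of 8 hepatocyte and hepatoma markers was 13875, 13527 and 8831 in the same order, against 12752 to 15907 in the 6 vehicle libraries. Of these 8 markers, 4 were called lower with 32-134D than in vehicle at 1% O2, against 13.7% of all genes tested. Without replicate 3 it was 0 of 8, and the 4 then had fold changes below 1.5. The share of all genes called in that fit was not computed. The part of this difference in the results for the apolipoproteins was not tested, and the values without replicate 3 are given beside the comparisons with 32-134D. Total counts ran from 6013980 to 40549699 per library. Of the markers of other cell types, VWF and CD163 had no count in any library, CDH5 had at most 1 count in a library and DCN at most 2, and FABP2 and SI, which mark the enterocytes that also make APOA1, APOA4 and APOB, had at most 1 and 2. The summed CPM of the 5 intestinal markers was 675 to 739 in vehicle at 20% O2, 259 to 325 in vehicle at 1% O2 and 605 to 663 with 32-134D, and VIL1, which encodes villin, was the 1 gene of the list with a mean of at least 1 CPM. VIL1 fell by 1.24 on the log2 scale in hypoxia, while CDX2 rose by 1.53 on 1 to 77 counts. The 4 stromal markers summed to 35.2 to 38.0, 16.8 to 18.1 and 34.5 to 43.0 CPM in the same order, with PDGFRB falling by 1.44 and COL1A1 by 0.85 in hypoxia and LUM at 0.61 (FDR = 0.112). The 3 endothelial markers summed to at most 1.28 and the 4 blood cell and macrophage markers to at most 4.80. The intestinal sum, carried by VIL1, and the stromal sum were lowest in vehicle at 1% O2, as was APOB, in cultures of 1 cell line. A link of these genes to the result for APOB was not tested. The hepatocyte genes ALB and HNF4A averaged 9284 and 382 CPM in vehicle at 20% O2. In bulk RNA, fewer cells of a kind and less RNA per cell cannot be told apart.

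The first comparison, vehicle at 1% against vehicle at 20% O2, asks what hypoxia alone changes. APOA4 and APOC3 were called higher, 2 of 10 genes, against 19.5% of all genes tested, and APOB and APOM were called lower, 2 of 10, against 20.3% of all. The CPM of the 2 groups did not overlap for 5 of the 10 genes, against 60.5% of all genes. The median log2 fold change was -0.16 over the 10 genes and 0.00 over all genes tested, and they were -0.37 and -0.09 with the trend of each library over transcript length removed, an alternative chosen after seeing the data. The counts of called genes among the 10 were thus near those of all genes, and the account below is of the single members.

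APOB, the VLDL protein, fell most. Its CPM was 3256, 4948 and 5256 in replicates 1, 2 and 3 of vehicle at 20% O2, 423, 377 and 416 in vehicle at 1% O2, and 3884, 3968 and 2707 with 32-134D. Every library of vehicle at 1% O2 was far below the other 6, and the libraries at 20% O2 and with 32-134D overlapped. The log2 fold change in hypoxia was -3.47 ± 0.18 (SE), with a 95% confidence interval of -3.85 to -3.09 and FDR = 7.6e-10, a level 11.1-fold lower. Of the 22672 genes, 477 had a lower value. The longest annotated APOB transcript is 14121 bases, and long transcripts fell in general in hypoxia: the median log2 fold change was -0.55 over 606 protein-coding genes with transcripts over 10 kb, 45.9% of which were called lower, and 0.27 over 2220 genes of 1 to 2 kb. Of the 606, 10 had a lower value than APOB. The trend, taken relative to the mean of the 9 libraries, also differed within a group. At 15000 bases it was 0.046, 0.29 and 0.38 on the log2 scale in replicates 1, 2 and 3 of vehicle at 20% O2. In vehicle at 1% O2 it was -0.34, -0.47 and -0.46, and the cause of the trend was not tested. When this trend was removed from each library, the log2 fold change of APOB was -2.83 with FDR = 1.6e-09.

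**Figure D2:**
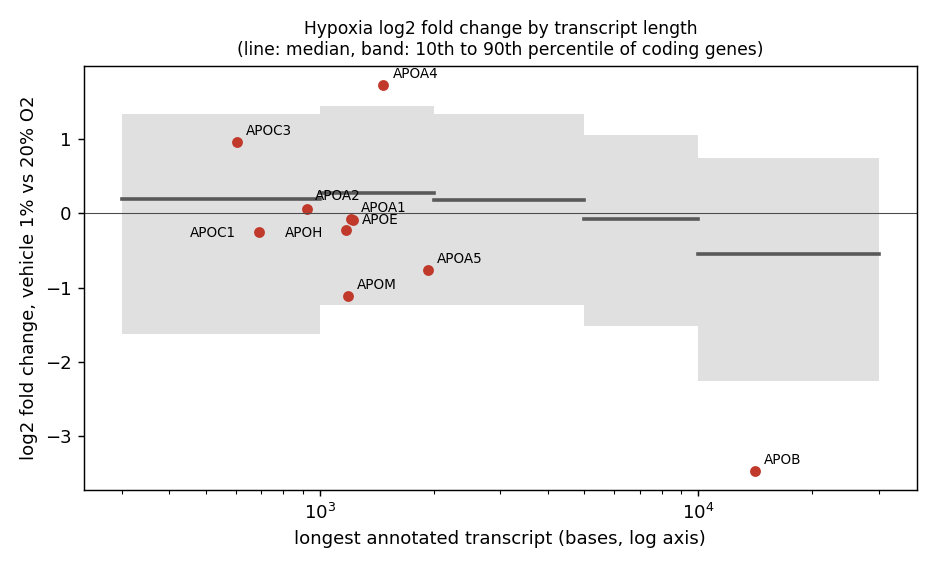
Log2 fold change of vehicle at 1% against vehicle at 20% O2 (vertical axis) by the longest annotated transcript in bases (log axis), with the median (gray line) and the 10th to 90th percentile (band) of protein-coding genes in 5 length classes and the 10 apolipoprotein genes as red points. APOB, at -3.47, lies below the band of genes over 10 kb, whose median is -0.55, and the other 9 have transcripts under 2 kb.

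APOM, the HDL protein that carries sphingosine 1-phosphate, was the other gene that fell. Its CPM was 18.6, 17.1 and 17.2 in vehicle at 20% O2, 7.79, 8.86 and 7.85 in vehicle at 1% O2, and 14.4, 11.9 and 9.42 with 32-134D. The 3 groups did not overlap, with the compound libraries between the others. The log2 fold change in hypoxia was -1.12 ± 0.14 (SE) with FDR = 9.8e-06, a level 2.17-fold lower. Exons of APOM share 136 bases with BAG6, a gene on the opposite strand at 834 CPM in vehicle at 20% O2 and 1180 CPM in vehicle at 1% O2. The strand setting of the counting is not given in the sources used here, so reads in these bases cannot be told apart.

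In the cluster on chromosome 11, neighboring genes differed. APOC3, an inhibitor of lipoprotein lipase and of particle uptake, was at 17.1, 16.5 and 14.4 CPM in vehicle at 20% O2, 24.6, 32.4 and 35.4 in vehicle at 1% O2, and 13.2, 11.7 and 7.41 with 32-134D. It was higher in each library of vehicle at 1% O2 than in any other library, with a log2 fold change of 0.95 ± 0.18 (SE) and FDR = 0.0004, a 1.94-fold rise. APOA4, a lipid-binding protein made mainly by the intestine and at low levels by the liver, rested on few counts, 10, 4 and 19 in vehicle at 20% O2, 61, 46 and 73 in vehicle at 1% O2 and 9, 6 and 6 with 32-134D. In CPM these were 0.717, 0.628 and 0.578, then 1.62, 2.17 and 2.52, and then 0.255, 0.202 and 0.274, and the 3 groups did not overlap. The log2 fold change of APOA4 in hypoxia was 1.72 ± 0.29 (SE), with a 95% confidence interval of 1.10 to 2.35 and FDR = 0.00014. AP006216.3, an antisense transcript that shares 635 bases (43.1%) of the APOA4 exons, had 3 counts in 1 library and 0 in the other 8. How reads in shared bases were assigned is not given in the sources used here, so these few counts do not show that the overlap was without effect.

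APOA1, the main HDL protein, lies next to APOC3 and did not pass the thresholds in hypoxia. It was at 605, 560.3 and 543 CPM in vehicle at 20% O2 and at 425, 579 and 605 in vehicle at 1% O2, and the groups overlapped. The log2 fold change was -0.09, with a 95% confidence interval of -0.51 to 0.33 and FDR = 0.735. APOA5, an activator of triglyceride hydrolysis, had 28, 7 and 57 counts in vehicle at 20% O2 and 28, 21 and 37 in vehicle at 1% O2. Its log2 fold change was -0.77, with a 95% confidence interval of -1.46 to -0.07 and FDR = 0.0591. This call changed in 10 of the 19 alternatives that gave a value, in which APOA5 passed the thresholds with log2 fold changes from -1.01 to -0.74.

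The most abundant genes other than APOB were not called in hypoxia. APOA2, the second HDL protein, was at 2632 to 3214 CPM in vehicle at 20% O2 and 2695 to 3171 in vehicle at 1% O2, with a log2 fold change of 0.06 and a 95% confidence interval of -0.16 to 0.29. APOE, which lipoprotein receptors bind, was at 2445 to 2829 and 2092 to 2648 CPM, with a log2 fold change of -0.08 and an interval of -0.31 to 0.16. APOC1, which inhibits cholesteryl ester transfer, was at 114 to 147 and 95.3 to 118 CPM, with a log2 fold change of -0.25 and FDR = 0.0575. APOH, also called beta-2-glycoprotein I, binds phospholipids in plasma and was at 361 to 414 and 295 to 350.0 CPM, with a log2 fold change of -0.23 and FDR = 0.336. The groups did not overlap for APOH, but its fold change was not past the thresholds. With the trend over transcript length removed, the log2 fold changes of APOE and APOC1 were -0.29 (FDR = 0.0106) and -0.43 (FDR = 0.000224), still under 1.5-fold. TEC transcript AC011481.3 shares 532 bases (43.2%) of the APOC1 exons on the same strand and had 6 to 29 counts, against 738 to 4129 for APOC1. The effect of this overlap on the counts of APOC1 was not tested.

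The second comparison asks what 32-134D changes at 1% O2, against vehicle at 1% O2. It shares the vehicle libraries at 1% O2 with the first comparison, so that an error in these libraries moves both in opposite directions. APOB was called higher, 1 of 10 genes, against 16.2% of all genes tested, and APOA4 and APOC3 were called lower, 2 of 10, against 13.7% of all. The groups did not overlap for 5 of the 10, against 56.1% of all genes. The median log2 fold change was -0.19 over the 10 genes and -0.01 over all genes tested. Without replicate 3 of 32-134D the median of the 10 was -0.0054, with 5 of 10 below 0, and with the trend over transcript length removed it was 0.04, against 0.08 over all genes.

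The expression of APOB was raised by 3.12 ± 0.17 (SE) on the log2 scale, with a 95% confidence interval of 2.75 to 3.49 and FDR = 6e-09. Taken singly, the 32-134D libraries were 9.58-fold, 9.79-fold and 6.68-fold above the mean of vehicle at 1% O2, and without replicate 3 the log2 fold change was 3.28. With the trend over transcript length removed it was 2.55 with FDR = 1.2e-08. The median of the 606 genes with transcripts over 10 kb was 0.56 in this comparison.

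The hypoxia-induced expression of APOC3 was inhibited by 32-134D, with a log2 fold change of -1.50 ± 0.18 (SE) and FDR = 7.3e-06. The single libraries were 2.33-fold, 2.64-fold and 4.16-fold below the mean of vehicle at 1% O2. Replicate 3 was the lowest, and without it the log2 fold change was -1.30 with FDR = 5.4e-10. APOA4 was also inhibited, with a log2 fold change of -3.08 ± 0.30 (SE), a 95% confidence interval of -3.73 to -2.44 and FDR = 1.1e-06. Its single libraries were 8.24-fold, 10.4-fold and 7.66-fold below the mean of vehicle at 1% O2, and each rested on 6 to 9 counts.

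APOM was higher with 32-134D than with vehicle at 1% O2 in each of the 3 libraries, by 1.76-fold, 1.45-fold and 1.15-fold. Its log2 fold change was 0.55 ± 0.14 (SE) with FDR = 0.00441, but the 1.47-fold difference was just under the fold change threshold. In 12 of the 20 alternatives it passed, and without replicate 3 of 32-134D the log2 fold change was 0.70 with FDR = 6.1e-06. The interval of -0.80 to 0.58 for APOA5, with a log2 fold change of -0.11, was wide, and its counts with 32-134D were 43, 27 and 12.

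**Figure D3:**
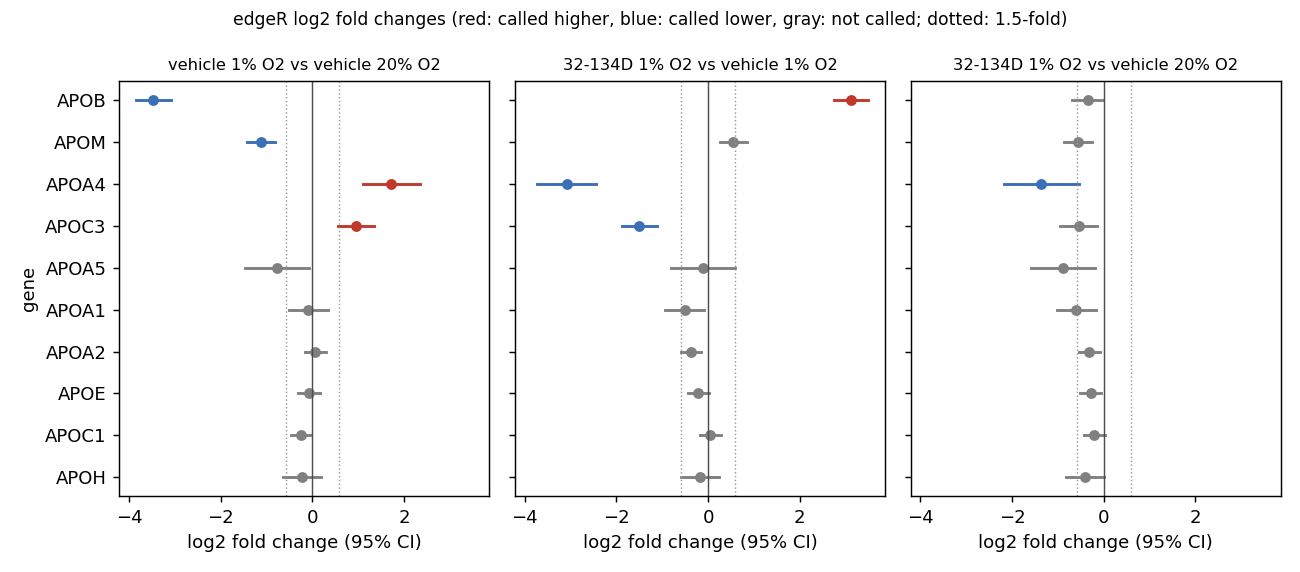
Log2 fold changes with 95% confidence intervals of the 10 apolipoprotein genes in the 3 comparisons, from the edgeR fit, with calls in color and dotted lines at 1.5-fold. APOB is at -3.47 and 3.12 in the first 2 panels, APOA4 is at 1.72 and -3.08, and in the third panel APOA4 alone is called, at -1.36.

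The HDL genes APOA1 and APOA2 passed the FDR but not the fold change threshold with 32-134D. APOA1 had a log2 fold change of -0.51 ± 0.20 (SE) with FDR = 0.044, and without replicate 3 it was -0.25 with FDR = 0.0283, so that its size rested on that library. APOA2 was at 2507, 2448 and 1951 CPM with 32-134D, below every library of vehicle at 1% O2. Its log2 fold change was -0.37 ± 0.11 (SE) with FDR = 0.00859, and without replicate 3 it was -0.27. The other genes overlapped between the groups. The log2 fold change of APOE was -0.21 with an interval of -0.44 to 0.02, that of APOC1 was 0.05 with an interval of -0.17 to 0.27, and that of APOH was -0.17 with an interval of -0.58 to 0.24. Without replicate 3, APOH had a log2 fold change of 0.10, the opposite sign.

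**Figure D4:**
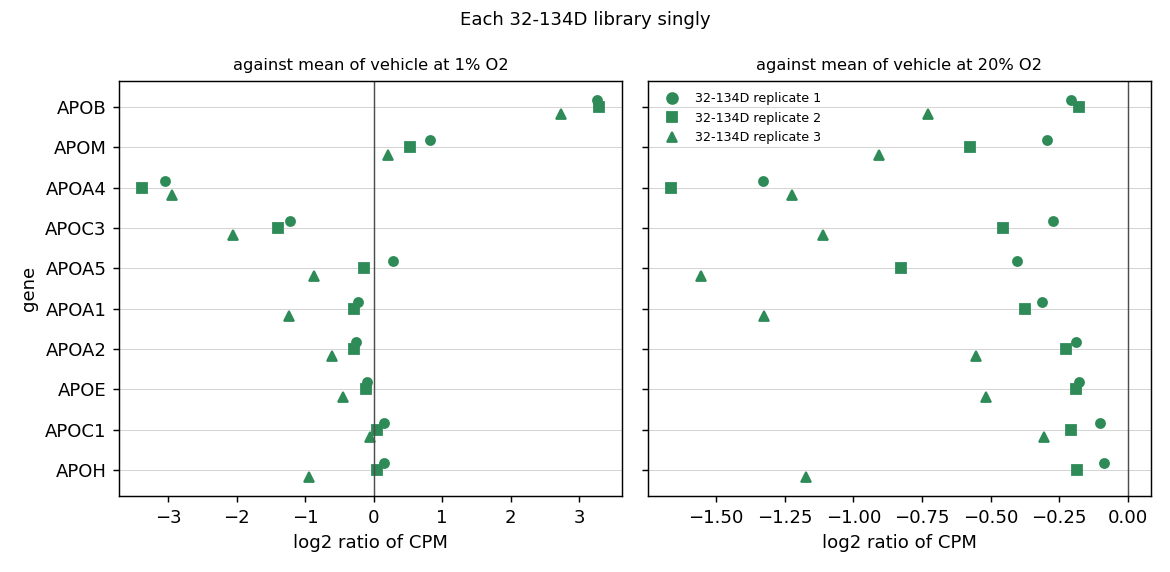
Log2 ratio of CPM of each 32-134D library to the mean of vehicle at 1% O2 (left) and of vehicle at 20% O2 (right) for the 10 apolipoprotein genes, with 1 marker shape for each replicate. Replicate 3 (triangles) is the lowest of the 3 for every gene but APOA4, and all points on the right are below 0.

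The third comparison sets 32-134D at 1% O2 beside vehicle at 20% O2, sharing libraries with both others. APOA4 was called lower, 1 of 10 genes, against 0.516% of all genes tested. By edgeR 0 of the 10 were called higher, against 3.0% of all, and DESeq2 also called 0. At an unadjusted edgeR p below 0.05, 0 were higher and 8 lower, a count for which no share over all genes was computed. All 10 log2 fold changes were below 0, with a median of -0.47 against 0.00 over all genes tested, and the groups did not overlap for 7 of the 10, against 29.8% of all genes. Without replicate 3 of 32-134D all 10 were again below 0, with a median of -0.27, and the median of the 8 hepatocyte and hepatoma markers moved from -0.48 to -0.16. APOA4 was at 39.8%, 31.5% and 42.8% of the mean of vehicle at 20% O2 in the single libraries, with a log2 fold change of -1.36 ± 0.38 (SE) and FDR = 0.0348. This call was lost in 9 of the 19 alternatives that gave a value, among them leaving out any 1 replicate of vehicle at 20% O2 (FDR from 0.0682 to 0.0895), replicate 2 of vehicle at 1% O2 (0.0534), or replicate 1 or 2 of 32-134D (0.0703 and 0.0947).

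The other 9 genes were not called. APOA5 was at 75.6%, 56.3% and 34.0% of its mean in vehicle at 20% O2, with a log2 fold change of -0.88, a 95% confidence interval of -1.58 to -0.18 and FDR = 0.107. In replicate 3, APOA5 and APOA1 lay further below vehicle at 20% O2 than APOA4. APOB was at 86.6%, 88.4% and 60.3%, with a log2 fold change of -0.35, a 95% confidence interval of -0.69 to -0.01 and FDR = 0.194. APOC3 was at 82.8%, 73.0% and 46.3%, with a log2 fold change of -0.54 and FDR = 0.0855. APOM was at 81.5%, 67.1% and 53.4%, with a log2 fold change of -0.56 and FDR = 0.0197, under 1.5-fold. APOA1 was at 80.6%, 77.2% and 39.9%, with a log2 fold change of -0.60 and FDR = 0.0704. Without replicate 3, APOA5 was at -0.67, APOA1 at -0.34, APOB at -0.19, APOC3 at -0.33 and APOM at -0.43 on the log2 scale.

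A ratio of counts of a pair of genes within 1 library does not depend on the scaling between libraries. It depends on both genes, so that a ratio to APOA1 rises where APOA1 falls. APOA1 was at 459, 439 and 227 CPM in replicates 1, 2 and 3 of 32-134D. APOB had 5.38, 8.83 and 9.67 counts for each count of APOA1 in vehicle at 20% O2, 0.997, 0.652 and 0.688 in vehicle at 1% O2, and 8.47, 9.03 and 11.9 with 32-134D. The ratio was 10.1-fold lower in vehicle at 1% O2 than at 20% O2 and 12.7-fold higher with 32-134D than in vehicle at 1% O2, with no overlap in either comparison. APOC3 was at 0.0283, 0.0294 and 0.0265 of APOA1 in vehicle at 20% O2, 0.058, 0.056 and 0.0586 in vehicle at 1% O2, and 0.0289, 0.0266 and 0.0326 with 32-134D. Replicate 3 of 32-134D, at 7.41 CPM the lowest library for APOC3, was the highest of its group in this ratio, and the compound libraries overlapped those at 20% O2. For the ratios of APOB, APOM, APOC3 and APOA4 to APOA1, the exact two-sided permutation p was 0.1 in each of the first 2 comparisons, the smallest that 3 against 3 libraries allow. APOC1 to APOE, neither of them called, also gave an exact permutation p of 0.1 in both, at 1.12-fold and 1.20-fold. So did APOH and APOE to APOA1 with 32-134D, at 1.25-fold and 1.28-fold. This p thus did not set the called genes apart from the others. The ratio of APOA4 to APOA1 with 32-134D was 0.000556, 0.00046 and 0.00121, of which the third was above the values of 0.00106 to 0.00119 at 20% O2 and the others below them (exact permutation p = 0.4, two-sided). APOE to APOA1 was 4.36 to 4.68 in vehicle at 20% O2, 4.29 to 4.93 in vehicle at 1% O2 and 4.96, 5.14 and 7.92 with 32-134D.

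**Figure D5:**
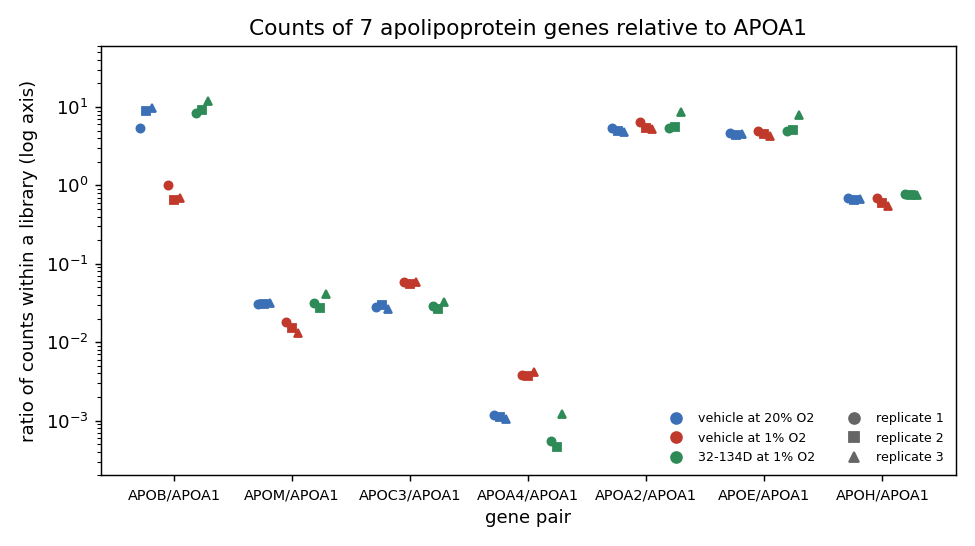
Ratio of the counts of 7 apolipoprotein genes to those of APOA1 within each library (log axis), colored by group and shaped by replicate. APOB/APOA1 is 0.652 to 0.997 in vehicle at 1% O2 and 5.38 to 11.9 in the other 6 libraries, and APOC3/APOA1 is 0.056 to 0.0586 against 0.0265 to 0.0326.

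The genes most like each member were taken as the 3 with the smallest root mean square distance between log2 CPM profiles, each centered on its mean, over the 9 libraries, among 9878 genes with a mean of at least 10 CPM. APOB was nearest to FRAS1 (distance 0.103), CGNL1 (0.108) and LAMA5 (0.150). APOC3 was nearest to CAVIN2 (0.126), TMEM141 (0.135) and FBXO2 (0.181), and APOM to CACFD1 (0.0865), LLGL2 (0.0981) and SERPINA6 (0.107). For APOA4 the nearest genes were NEURL3 (0.466), ANGPTL8 (0.468) and SLC2A14 (0.480), at much larger distances. APOA4, with 4 to 73 counts in a library, and APOA5 themselves lay below the 10 CPM limit of the search. Counting error enters their distances, and its part was not tested. APOA1 was nearest to VTN (0.103), SDC2 (0.107) and SERPIND1 (0.121), and APOH to ACAA1 (0.0414), GC (0.0611) and DBI (0.0648). The remaining genes were nearest to GCHFR, HAGH and LMAN2 (APOA2), to PTRHD1, ISYNA1 and TLE5 (APOE), to TIMM13, AKR1A1 and GLTPD2 (APOC1) and to BEX3, DBI and ARSA (APOA5), at 0.0389 to 0.257. These profiles share the 9 libraries and their replicate 3 of 32-134D.

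Of 16 other genes that encode apolipoproteins or relatives of them, 10 were tested. In hypoxia 0 were called higher and 3 lower, against 19.5% and 20.3% of all genes tested, with a median of -0.66. With 32-134D 2 were called higher and 0 lower, against 16.2% and 13.7% of all, with a median of 0.39. APOC2, the activator of lipoprotein lipase, fell by 1.59 on the log2 scale in hypoxia (FDR = 5.1e-05) and rose by 1.29 with 32-134D, on 12 to 73 counts per library. APOOL, a mitochondrial protein of the MICOS complex, fell by 1.14 in hypoxia and rose by 1.06 with 32-134D. SAA4 fell by 2.05 in hypoxia on at most 28 counts in a library, and its call was lost in 4 of the 9 fits that left out 1 library. CLU, the most abundant of the list at 924 CPM in vehicle at 20% O2, had a log2 fold change of -0.41 with FDR = 0.159. APOC4 and SAA1 had no count in any library, and APOL3, APOL4, LPA and SAA2 had at most 1 count in a library.

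Genes of VLDL assembly and export, through which APOB is lipidated and secreted, moved in both directions. Of 15 tested, 2 were called higher and 3 lower in hypoxia, against 19.5% and 20.3% of all genes, with a median of 0.12. With 32-134D 2 were called higher and 2 lower, against 16.2% and 13.7% of all, with a median of -0.02. MTTP, the microsomal transfer protein that loads lipid onto APOB, was at 62.5 CPM in vehicle at 20% O2, 31.9 in vehicle at 1% O2 and 53.3 with 32-134D. It fell by 0.98 on the log2 scale in hypoxia and rose by 0.74 with 32-134D. SORT1, a sorting receptor for APOB, fell by 1.12 and rose by 0.91. SMLR1 fell by 1.89 in hypoxia and was at 0.97 on the log2 scale with 32-134D (FDR = 0.0715). Its counts with 32-134D were 494, 433 and 46, and without replicate 3 the log2 fold change was 1.43 and called. PLA2G12B, which takes part in the lipidation of APOB particles, rose by 1.20 in hypoxia and fell by 0.71 with 32-134D, and CIDEB, a lipid droplet protein that aids VLDL lipidation, rose by 0.72 and fell by 0.79. APOBEC1, the enzyme that edits APOB mRNA to the shorter intestinal form, had no count in any library.

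Among 13 genes of HDL maturation and remodeling, 2 were called higher and 5 lower in hypoxia, against 19.5% and 20.3% of all genes, and with 32-134D 3 were called higher and 2 lower, against 16.2% and 13.7%. ABCA1, which passes cholesterol to APOA1, was at 132 CPM in vehicle at 20% O2, 32.4 in vehicle at 1% O2 and 120 with 32-134D. It fell by 2.02 on the log2 scale in hypoxia and rose by 1.88 with 32-134D. LIPC, the hepatic lipase, fell by 1.52 and rose by 1.48. LCAT, which esterifies cholesterol on HDL with APOA1 as its cofactor, rose by 1.09 in hypoxia and fell by 1.09 with 32-134D. LIPG and PON1 were called lower in hypoxia on at most 16 and 9 counts in a library, PON1 not without replicate 1 of vehicle at 20% O2. CETP was called lower with 32-134D on at most 5 counts, and not without replicate 1 or 2 of 32-134D.

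Of 12 tested lipoprotein receptors and genes that control them, 3 were called higher and 4 lower in hypoxia, against 19.5% and 20.3% of all genes, and 4 higher and 3 lower with 32-134D, against 16.2% and 13.7%. VLDLR, a receptor for APOE-containing particles, rose by 2.42 on the log2 scale in hypoxia and fell by 1.20 with 32-134D. MYLIP, a ubiquitin ligase for lipoprotein receptors, rose by 2.30 and fell by 1.09, and LSR, the lipolysis-stimulated receptor, rose by 1.40 and fell by 1.30. Both VLDLR and MYLIP were also called higher with 32-134D than in vehicle at 20% O2, by 1.22 and 1.21. LRP1, a large receptor for APOE-rich remnants, fell by 1.62 in hypoxia and rose by 1.32 with 32-134D. LRP8, the other APOE receptor of the list, rose by 2.98 with 32-134D on 309, 239 and 734 counts, and by 2.0 without replicate 3.

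Transcription factors known to act on apolipoprotein genes also went both ways, with 8 of 24 called higher and 7 lower in hypoxia, against 19.5% and 20.3% of all genes, and 6 higher and 7 lower with 32-134D, against 16.2% and 13.7%. HNF4A, a main activator of APOB, APOC3 and APOA1, had log2 fold changes of -0.11 in hypoxia and 0.03 with 32-134D, with FDR = 0.270 and 0.800. PROX1 fell by 3.25 in hypoxia and rose by 3.09 with 32-134D, and NR1H4, the bile acid receptor FXR, fell by 2.08 and rose by 1.53. RORA, a receptor that activates APOC3 and APOA5 in other systems, rose by 2.99 and fell by 1.88. CEBPA fell by 1.61 and rose by 0.87, a rise that was 1.25 without replicate 3 and not called without replicate 1 or 2 of either group at 1% O2. CEBPB rose by 1.87 in hypoxia and fell by 0.81 with 32-134D, and MLXIPL, the glucose-responsive factor ChREBP, fell by 1.69 and rose by 1.14.

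Neighbors of the clusters did not all move with the apolipoproteins. Beside the cluster on chromosome 11, 1 of 7 genes was called higher and 2 lower in hypoxia, against 19.5% and 20.3% of all genes. ZPR1, next to APOA5, rose by 1.09 on the log2 scale, TAGLN fell by 0.87, and PCSK7 fell by 0.65, or by 0.57 and uncalled without replicate 3 of vehicle at 20% O2. Beside APOE and APOC1 on chromosome 19, 2 of 9 genes were called higher and 2 lower: ZNF296 rose by 2.12, RELB rose by 0.77, BCAM fell by 1.12 and CBLC fell by 1.09. With 32-134D, ZPR1 fell by 0.69, TAGLN rose by 1.03, ZNF296 fell by 1.04, CBLC rose by 0.96, and BCAM rose by 0.66, or by 0.57 and uncalled without replicate 1 of vehicle at 1% O2. Without replicate 3 of 32-134D, the counts with 32-134D became 3 higher of 10 for the other apolipoproteins, 3 higher of 15 for VLDL assembly, 4 higher of 13 for HDL remodeling and 7 higher of 24 for the transcription factors, with the lower counts as before. With the trend over transcript length removed, the counts in hypoxia became 1 higher and 4 lower of the 9 genes on chromosome 19, 1 and 1 of the 7 on chromosome 11, 1 and 5 of 13 for HDL remodeling, 4 and 4 of 12 for the receptors and 7 and 9 of 24 for the transcription factors. With 32-134D the same removal gave 3 higher and 1 lower of 15 for VLDL assembly. It gave 4 and 2 of 13 for HDL remodeling and 7 and 6 of 24 for the transcription factors. The shares of all genes called under these alternative settings were not computed, so these counts have no such share beside them. The HIF target genes CA9, NDRG1, VEGFA, EPO and ANGPTL4, which check the treatments, were called higher in hypoxia and lower with 32-134D, 5 of 5 each. The shares of all genes tested were 19.5% and 13.7%, and the medians of the 5 were 3.82 and -3.35. With 32-134D 4 of the 5 were still called higher than in vehicle at 20% O2, with a median of 0.69, against 3.0% of all genes.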

How the data were processed

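RNA of Hep3B cultures was sequenced in 3 groups of 3 libraries. The authors deposited 1 table of raw counts for each Ensembl gene, made with FastQC, Bbduk, STAR and featureCounts on GRCh38, and the strand setting and tool versions are not given in the sources used here. The 9 columns were matched to the samples by label, and 0 were left unmapped. Total counts of 6013980 to 40549699 per library limit genes with few counts, such as APOA4. A gene entered the test where its counts over all libraries summed to 10 or more, in edgeR 4.0.16 in R 4.3.3 (TMM scaling, quasi-likelihood, 1 fit of 9 libraries), with Benjamini-Hochberg adjustment over 22672 genes. CPM are these counts scaled to a common library size by TMM, without a pseudocount. The log2 CPM behind the nearest profiles and the trend over transcript length did include a pseudocount. Standard errors were taken from the F statistic. The procedure was tested on simulated data with known changes. Lengths and positions came from GENCODE version 29, an earlier release than that of the counts, and upstream sequences from RefSeq. DESeq2 1.42.0, other scalings, filters, thresholds, subsets and blocks were alternatives.

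The members and lists were chosen with earlier results of these data known, so that no pattern over them is independent support. Named genes are the 10 members, the called list members with the largest log2 fold changes (up to 6 for each list) with any that a sentence on a member needs, and the 3 nearest profiles of each member. Replicate pairs differed by more than counting error (chi-square per degree of freedom 1.62 to 36.4). Single values of some genes in the list of receptors and their control are not reported here.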

Additional observations from a re-analysis of the deposited data

How the results depend on the processing

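Of 594 recomputed log2 fold changes of the 10 genes, 534 kept their direction and their side of the thresholds and 18 changed sign. APOB and APOC3 kept both calls, and APOM its fall in hypoxia, in all 20 alternatives, as did APOA4 in the 19 that gave a value; with at least 10 counts required in every library, APOA4 and APOA5 had none. The number called higher in hypoxia, 2, was 1 with that filter and 1 with a fold change above 2. The number called higher with 32-134D, 1, was 2 (APOB with APOM) with DESeq2, RLE scaling, total library size, upper quartile scaling, that filter, a fit of just the groups compared, counts thinned to the depth of the smallest library, no fold change threshold, or the trend over transcript length removed. The number called lower with 32-134D, 2, was 1 with that filter and 4 without a fold change threshold. The number lower with 32-134D than at 20% O2, 1, was 2 with total library size, 3 with upper quartile scaling, 0 with that filter, with only the 2 groups compared or after thinning, and 2 without a fold change threshold.

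Leaving out 1 library at a time gave 2 genes higher each time and 2 to 3 lower in hypoxia, 1 to 2 higher and 2 to 3 lower with 32-134D, and 0 higher each time and 0 to 3 lower against 20% O2. Same-numbered replicates showed no sign of pairing (correlations of their deviations -0.032 to 0.005 over all genes tested). Genes with few counts entered these correlations, so pairing is not excluded. A replicate block gave 2 higher and 2 lower in hypoxia and 1 and 2 with 32-134D. Under it APOA4 against 20% O2 was -1.31 with FDR = 0.0665, and APOM -0.59, past 1.5-fold.

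The changes of sign were in values never past the thresholds. In hypoxia, APOA2 was -0.16 with total library size, -0.13 with upper quartile scaling, -0.0495 with at least 10 counts in every library, -0.0389 after thinning and -0.13 with the length trend removed. Leaving out 1 library gave -0.191 to 0.0534 for APOA1, -0.000906 to 0.128 for APOA2 and -0.139 to 0.0231 for APOE in hypoxia, and -0.0199 to 0.202 for APOC1, -0.354 to 0.178 for APOA5 and -0.300 to 0.0969 for APOH with 32-134D. With 32-134D, APOA5 was 0.0745 with total library size, 0.00704 with upper quartile scaling and 0.10 with the length trend removed. APOH was 0.0144 with total library size and 0.0579 with the length trend removed, and APOE was 0.0284 with the length trend removed. Total library size moved the median of all genes by -0.21 in hypoxia and 0.17 with 32-134D, and upper quartile scaling by -0.19 and 0.11. The cause of these changes was not tested. The share of APOA2 in the summed level per kilobase at 20% O2 was 54.9% with coding length and 47.0% with the longest transcript.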
